A study of Homo sapiens with 6 samples.

Results

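Nuclear receptors are transcription factors that bind DNA and, in many cases, a small lipid-soluble ligand. The 35 genes described here encode the steroid, retinoid, thyroid hormone, lipid-sensing and orphan receptors of this family that are not grouped with bile acid sensing. They were chosen by gene name from a table of 58735 genes. RNA was sequenced from OE33, an established line of human esophageal adenocarcinoma, in 2 groups of 3 biological replicates. In the ABS group, cells were held for 20 min in unsupplemented medium at pH 4.0 with 200 µM of an acidified bile salt mixture and were harvested after 6 h of recovery in complete medium. In the Ctrl group, cells were untreated. Both groups grew in medium with serum, no receptor ligand was named, and no group had acid, bile salts or the exposure medium alone, so the comparison covers all of these together.

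Most receptors of this family hold a zinc-finger domain that reads short DNA sites and a second domain that binds ligand and recruits coactivators or corepressors. Steroid receptors such as the glucocorticoid receptor are held by chaperones until hormone arrives and then act as homodimers. Retinoic acid, thyroid hormone and lipid-sensing receptors sit on DNA as heterodimers with a retinoid X receptor, while the NR4A receptors need no known ligand for their activity and are controlled mainly by rapid induction of their own genes. In the esophagus, retinoid signalling is known for its part in the balance between squamous and columnar epithelium.

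None of the 25 receptor genes with enough reads to be tested passed the threshold between ABS and Ctrl cells, an adjusted p of 0.05 from edgeR's quasi-likelihood test over all genes. Among all 13768 tested genes 0.436% passed, 0.37% higher and 0.0654% lower in ABS cells. At an unadjusted p under 0.05 there were 6 receptor genes, 2 higher and 4 lower in ABS cells, against 9.75% of all tested genes. DESeq2 called 2 of the 25 genes, *NR2F6* and *NR6A1*, both lower in ABS cells, where it called 1.92% of all tested genes, and limma-voom called 0. Without the low-count filter edgeR called 3, *NR2F6*, *NR6A1* and *NR4A2*, against 1.64% of all genes then tested. The median log2 fold change of the 25 genes was 0.01, against 0 over all tested genes. The largest fitted differences were in the NR4A genes *NR4A1* (0.86) and *NR4A2* (0.81), higher in ABS cells, and in *RARB* (-0.86), *NR6A1* (-0.74), *NR2F6* (-0.51) and *NR2F1* (-0.50), lower in ABS cells.

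Libraries held 23414287 to 25235686 counts in the ABS group and 22145676 to 23683950 in the Ctrl group. At this depth 3 counts, the limit that a count of 0 allows, were worth 0.119 to 0.135 CPM (counts scaled to library size). This limit used total counts, while the CPM of genes used effective library sizes. Such limits cover counting error only. ABS replicate 3 and Ctrl replicate 3 were more like each other than like their own groups. Raw counts were compared between each pair of libraries by chi-square over degrees of freedom, and this ratio was 7.14 between ABS replicate 3 and Ctrl replicate 3, 4.88 between ABS replicates 1 and 2, 4.93 between Ctrl replicates 1 and 2, and 14.7 to 20.4 for all other pairs. The labels name no batch. For the genes that moved most with these libraries, values within replicates 1 and 2 and between the replicate 3 libraries stand beside the main value. Epithelial markers, 6 of 6 of them with counts, summed to 23700 to 24400 TPM (counts scaled by gene length and library size) in ABS libraries and 23200 to 25100 TPM in Ctrl libraries. Fibroblast markers summed to at most 1.88 TPM, with 2 of 6 at 0 counts in all libraries, immune markers to at most 4.21 TPM, with 3 of 6 at 0, and endothelial markers to at most 0.315 TPM. In bulk RNA, fewer cells of a type and less RNA per cell cannot be told apart.

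Receptor levels spanned a wide range in untreated cells (TPM, per gene length). *ESRRA*, which encodes the estrogen-related receptor alpha, an orphan receptor that controls genes of mitochondrial metabolism, had the highest level of the 35 genes. It stood at 166, 153 and 160 TPM in ABS replicates 1, 2 and 3, against 173, 184 and 167 TPM in Ctrl replicates 1, 2 and 3, and its Ctrl mean lay above 93% of all tested genes. Its Ctrl values did not overlap those of the next gene, *NR2F6*. *NR2F6*, an orphan receptor of the COUP-TF group, averaged 91.5 ± 17.7 TPM in ABS cells and 129 ± 11.8 TPM in Ctrl cells (SD, n = 3 each). The next genes by Ctrl level were *PPARD*, *NR2F2* and *RARG*, at Ctrl means of 94.9 ± 23.3, 86.4 ± 14.9 and 74.1 ± 1.92 TPM, and from *NR2F6* to *RARG* each gene's Ctrl values overlapped those of the next. *PPARG*, with 67.8 ± 1.47 TPM in ABS cells and 66.6 ± 1.70 TPM in Ctrl cells, did not overlap *RARG* or the gene below it in Ctrl libraries.

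A middle group ran without gaps in Ctrl values from *NR1H2* (39.3 ± 2.35 TPM) through *RARA* (39.2 ± 3.61 TPM) and *RXRA* (34.7 ± 1.19 TPM) to *RXRB* (27.5 ± 5.74 TPM). *NR3C1*, which encodes the glucocorticoid receptor, was the steroid hormone receptor gene with the highest level, at 24.1 ± 1.17 TPM in ABS cells and 19.7 ± 2.68 TPM in Ctrl cells. *NR2F1* and *NR2C2* followed with Ctrl means of 12.7 ± 2.47 and 9.46 ± 0.754 TPM. *NR5A2*, *NR2C1*, *NR1H3*, *HNF4G*, *PPARA*, *NR6A1*, *THRA* and *NR4A2* had Ctrl means between 3.14 and 7.27 TPM, and *THRB*, *NR4A1* and *RARB* between 1.08 and 1.41 TPM. *RORA*, the highest of the ROR genes, lay at 0.218 ± 0.0287 TPM in ABS cells and 0.193 ± 0.00672 TPM in Ctrl cells, above only 0.581% of tested genes. Over all 35 genes the receptor RNA summed to 805, 790.5 and 881.1 TPM in ABS replicates 1, 2 and 3, against 831.2, 814 and 908.5 TPM in Ctrl replicates 1, 2 and 3, so the sum was highest in replicate 3 of each group.

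**Figure D1:**
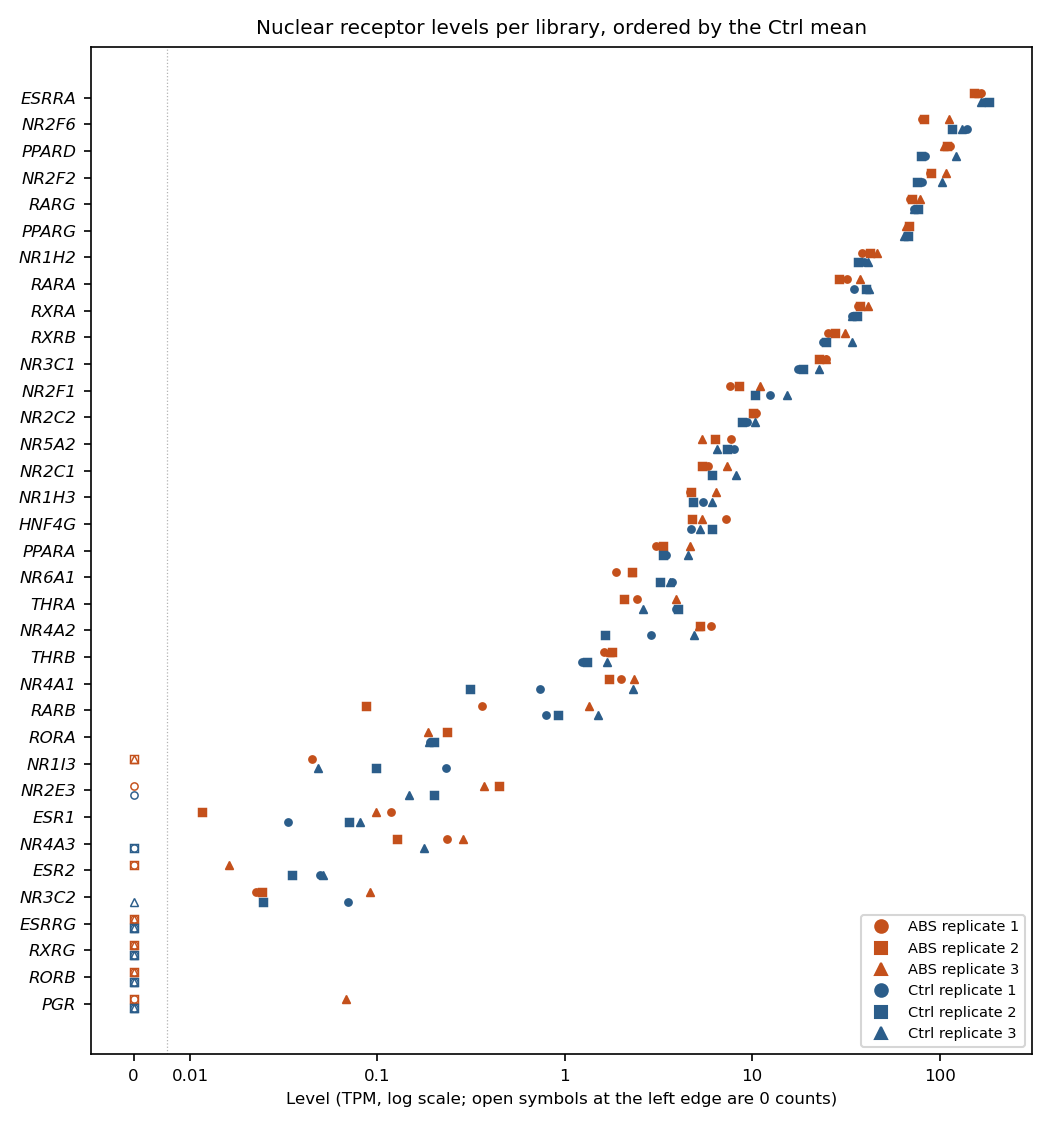
Level of each of the 35 nuclear receptor genes in each library (horizontal axis, TPM on a log scale; genes down the page in order of their Ctrl mean; ABS in orange and Ctrl in blue, with a symbol for each replicate number). *ESRRA* is highest at a Ctrl mean of 175 TPM, and 3 genes have 0 counts in all 6 libraries.

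Of the other 10 genes, which did not reach the low-count filter, 3 had 0 counts in all libraries and 7 had a few. The 3 were *ESRRG*, *RXRG* and *RORB*, and 3 counts would have been worth at most 0.0447, 0.181 and 0.0508 TPM for them. The estrogen receptor gene *ESR1* had 11, 1 and 9 counts in ABS replicates 1, 2 and 3, against 3, 6 and 7 in Ctrl replicates 1, 2 and 3. The other estrogen receptor gene, *ESR2*, had 0, 0 and 1 counts in ABS libraries, against 3, 2 and 3 in Ctrl libraries. The progesterone receptor gene *PGR* had 7 counts in ABS replicate 3 and 0 in the other 5 libraries, and the mineralocorticoid receptor gene *NR3C2* had 1, 1 and 4 counts in ABS libraries, against 3, 1 and 0 in Ctrl libraries. Of the steroid hormone receptors, then, *NR3C1* alone was counted at more than traces in these libraries. *NR1I3*, a sensor of foreign compounds best known from liver, had 1, 0 and 0 counts in ABS libraries, against 5, 2 and 1 in Ctrl libraries, and it shares 661 exonic bases with *TOMM40L* on the opposite strand. *NR2E3*, an orphan receptor of photoreceptors, had 0, 9 and 8 counts in ABS libraries, against 0, 4 and 3 in Ctrl libraries.

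The values of the 3 ABS libraries lay wholly above or below those of the 3 Ctrl libraries in 6 of the 25 tested receptor genes, against 14.5% of all tested genes. ABS was above in *NR3C1*, *THRB* and *NR4A2*, 3 of 25 against a background of 7.57%, and below in *NR2F6*, *NR2F1* and *NR6A1*, 3 of 25 against 6.95%. With library size alone as the scaling the count was 4. Without ABS replicate 3 it was 14, without Ctrl replicate 3 it was 12, and within replicates 1 and 2, with 2 values per group, it was 19. Fewer values per group separate more easily. No share over all tested genes was computed for these smaller sets or for library size alone. These counts therefore have no background and are no result about the receptor genes.

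*NR2F6*, whose product mostly represses transcription and is known as a brake on cytokine genes in T cells, had the smallest p of the 25 genes (chr19:17231883-17245940, minus strand, GRCh38). It stood at 58.5, 60.1 and 78.2 CPM in ABS replicates 1, 2 and 3, against 103, 87.1 and 90.6 CPM in Ctrl replicates 1, 2 and 3. All ABS values were below all Ctrl values, with ABS replicate 3 closest to the Ctrl libraries. The fitted difference on the log2 scale was -0.51 ± 0.11 (SE), a level in ABS cells 0.701 times that in Ctrl cells, with an edgeR adjusted p of 0.0782. It passed without ABS replicate 3 (edgeR adjusted p = 0.00433) and without Ctrl replicate 3 (0.0238), and also with DESeq2 (0.00267). It did not pass without ABS replicate 1 (0.404), ABS replicate 2 (0.347), Ctrl replicate 1 (0.394) or Ctrl replicate 2 (0.244). Nor did it pass with library size alone as scaling (0.148). The log2 fold change was -0.68 within replicates 1 and 2, and between the replicate 3 libraries the log2 difference was -0.21, with 1 library per group.

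*NR2F1*, which encodes COUP-TF1, a regulator of development and of cell quiescence, showed a difference of like size at a lower level (chr5:93583224-93594615, plus strand). It had 8.96, 10.0 and 12.4 CPM in ABS replicates 1, 2 and 3, against 14.7, 12.6 and 17.1 CPM in Ctrl replicates 1, 2 and 3. The highest ABS value, that of replicate 3, fell just short of the lowest Ctrl value. Its log2 fold change was -0.50 ± 0.16 (SE; edgeR adjusted p = 0.258), with -0.53 within replicates 1 and 2 and -0.46 between the replicate 3 libraries. *NR2F1* shares 158 exonic bases with *NR2F1-AS1* on the opposite strand, a gene with 1368 counts over the 6 libraries, and the strand setting of the counting was not stated. *NR2F2*, its paralogue COUP-TF2, did not follow them. It lay at 156, 159 and 181 CPM in ABS libraries, against 144, 136 and 173 CPM in Ctrl libraries, with replicate 3 highest in both groups and a log2 fold change of 0.13 ± 0.10 (edgeR adjusted p = 0.721). The testicular receptor genes *NR2C1* and *NR2C2* had log2 fold changes of -0.14 and 0.10 and *HNF4G*, a regulator of intestinal and gastric epithelial genes, one of 0.10, with adjusted p of 0.785 to 0.931.

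*NR6A1*, the germ cell nuclear factor, which represses pluripotency genes in mouse embryos, was also lower (chr9:124517275-124771310, minus strand). It had 3.63, 4.42 and 4.24 CPM in ABS replicates 1, 2 and 3, against 7.31, 6.42 and 6.74 CPM in Ctrl replicates 1, 2 and 3. The groups stood well apart relative to the spread within each. The log2 fold change was -0.74 ± 0.18 (SE; edgeR adjusted p = 0.110), and it was -0.77 within replicates 1 and 2 and -0.67 between the replicate 3 libraries. Among the 6 fits that left out a library it did not pass. It passed with DESeq2 (0.0341), without a low-count filter (0.0349) and once the model held a term for replicate 3 (0.0321). *NR5A2*, the liver receptor homologue LRH-1 of endodermal tissues, had a log2 fold change of -0.19 ± 0.16 (edgeR adjusted p = 0.777).

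The NR4A genes encode early-response receptors that are induced within hours by many stimuli. *NR4A2* had 6.49, 5.68 and 5.42 CPM in ABS replicates 1, 2 and 3, against 3.15, 1.82 and 5.05 CPM in Ctrl replicates 1, 2 and 3. *NR4A1* had 3.95, 3.45 and 4.47 CPM in ABS libraries, against 1.49, 0.637 and 4.38 CPM in Ctrl libraries. *NR4A3*, below the filter, had 10, 5 and 12 counts in ABS libraries, against 0, 0 and 7 in Ctrl libraries. In all 3 genes Ctrl replicate 3 stood far above the other Ctrl libraries and close to the ABS libraries. Summed over the 3 genes, the level was 8.25, 7.11 and 7.87 TPM in ABS replicates 1, 2 and 3, against 3.61, 1.95 and 7.41 TPM in Ctrl replicates 1, 2 and 3.

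Over all libraries the log2 fold change was 0.81 ± 0.30 (SE) for *NR4A2*, with an edgeR adjusted p of 0.348, and 0.86 ± 0.48 for *NR4A1*, with 0.621. Without Ctrl replicate 3 the values were 1.23 for *NR4A2* (edgeR adjusted p = 0.0251) and 1.88 for *NR4A1* (0.0142). Within replicates 1 and 2 they were 1.29 and 1.79, while between the replicate 3 libraries *NR4A2* differed by 0.10 and *NR4A1* by 0.03 on the log2 scale. The difference between these contrasts was not tested. Other regulators and targets of cAMP and CREB, which share inducers with the NR4A genes, had 0 of 10 members called with edgeR in either direction and 0 at an unadjusted p under 0.05, with a median log2 fold change of -0.11. Over all 13768 tested genes, 773 were higher and 570 lower at an unadjusted p under 0.05. Of the 10 cAMP and CREB genes, *CRTC3*, a CREB coactivator, had -0.20 (adjusted p = 0.549) and *PDE4B*, a cAMP phosphodiesterase, -0.59 (0.671).

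**Figure D2:**
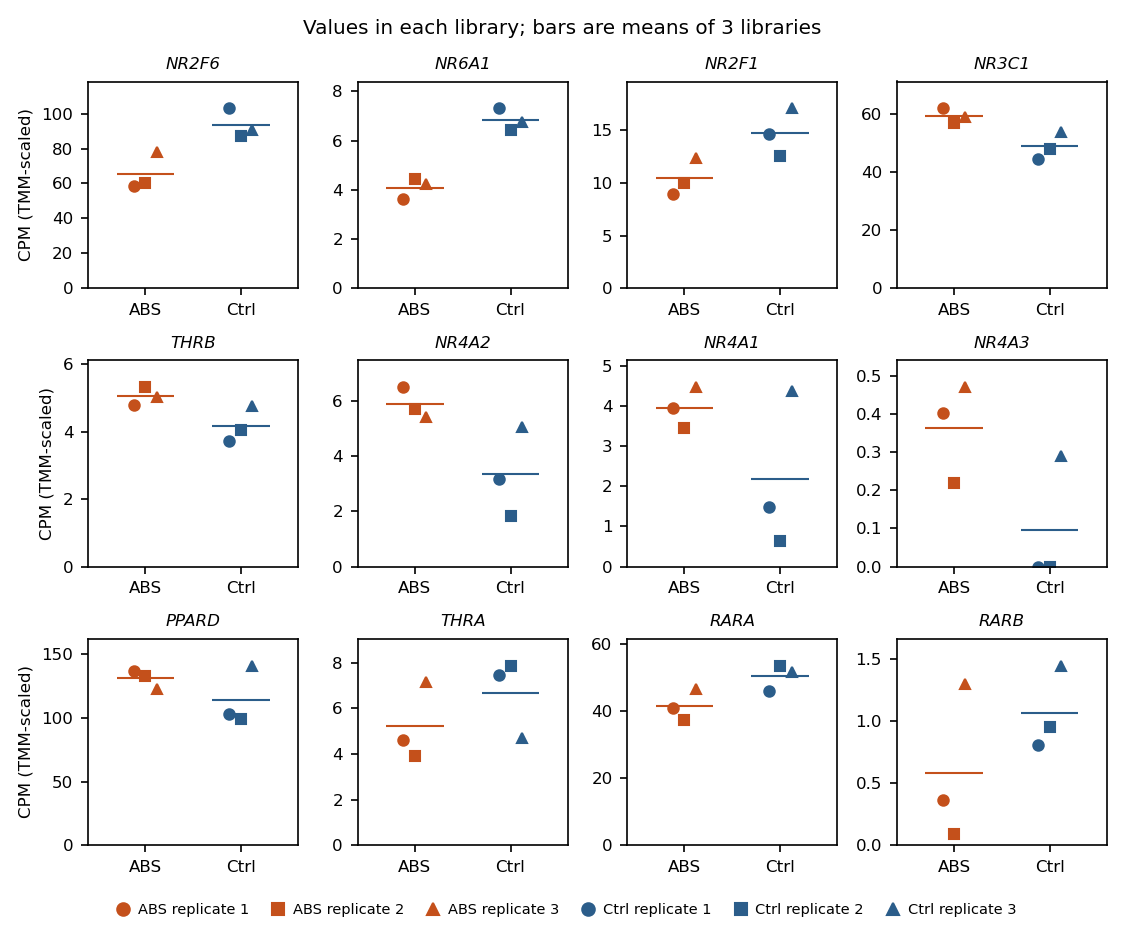
TMM-scaled CPM of 12 receptor genes in each library (vertical axes start at 0; ABS left of Ctrl; symbols give the replicate number and bars the mean of 3 libraries). *NR2F6*, *NR6A1* and *NR2F1* are lower in all ABS libraries, *NR3C1*, *THRB* and *NR4A2* are higher, and Ctrl replicate 3 lies near the ABS libraries for the NR4A genes and *PPARD*.

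Promoters are shown for *NR6A1*, *NR4A3* and *RARB*, receptor genes with low values or wide differences whose start regions hold sites of known signalling pathways. They are RefSeq sequences of GRCh38.p14, from 250 bases before to 50 bases after a transcription start, written 5′ to 3′ on the gene's strand. Capitals in the first and second mark TGACG on either strand, the core of the cAMP response element that CREB and related factors bind. Capitals in the third mark GTTCA, 6 bases of any kind (N) and GTTCA again, searched on either strand, a direct repeat bound by retinoic acid receptors with their retinoid X partners.
*NR6A1*, chr9:124771262-124771561, minus strand: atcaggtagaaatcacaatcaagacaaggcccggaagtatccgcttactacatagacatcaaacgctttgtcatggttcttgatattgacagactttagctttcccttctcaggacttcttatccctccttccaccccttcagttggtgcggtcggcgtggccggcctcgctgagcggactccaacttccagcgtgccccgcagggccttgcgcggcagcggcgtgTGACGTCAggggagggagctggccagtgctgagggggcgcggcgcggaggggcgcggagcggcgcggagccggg
*NR4A3*, chr9:99821635-99821934, plus strand: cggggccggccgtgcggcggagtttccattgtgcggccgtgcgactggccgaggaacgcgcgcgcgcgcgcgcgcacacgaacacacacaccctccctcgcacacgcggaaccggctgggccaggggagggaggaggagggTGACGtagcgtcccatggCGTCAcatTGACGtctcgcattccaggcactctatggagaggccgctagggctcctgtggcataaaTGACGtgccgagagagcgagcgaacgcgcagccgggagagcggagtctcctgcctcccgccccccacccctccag
*RARB*, chr3:25428013-25428312, plus strand: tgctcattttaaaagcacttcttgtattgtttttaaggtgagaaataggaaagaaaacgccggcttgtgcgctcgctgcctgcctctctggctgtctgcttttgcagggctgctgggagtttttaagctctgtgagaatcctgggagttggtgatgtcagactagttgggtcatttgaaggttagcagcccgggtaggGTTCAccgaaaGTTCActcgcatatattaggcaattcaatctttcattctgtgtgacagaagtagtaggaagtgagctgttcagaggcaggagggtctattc
The *NR6A1* window held the full palindrome TGACGTCA, which overlaps TGACG on both strands, and *NR4A3* held TGACG 4 times. Among 81 listed promoters of 32 receptor genes, 18 held TGACG and 1 held TGACGTCA, against 24.6% and 1.85% of 35116 RefSeq promoters. *NR2F6*, *NR4A2* and *HNF4G* had no promoter among the 81, so their start regions were not searched. The retinoid repeat was found in 1 of the 81, that of *RARB*, and in 0.057% of all promoters. The pattern has the letters of the known *RARB* site, so this match was fixed by the choice of pattern. These shares therefore cannot show whether receptor promoters are richer in such repeats. Repeats built from letters other than GTTCA were not searched. AGGTCA, the single site read by many receptors of this family, was in 13 of the 81 on either strand, against 13.8% of all. These matches describe the letters in these windows, and gene counts do not show which start was used.

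Retinoic acid receptors bind the vitamin A derivative that promotes columnar over squamous differentiation in many epithelia. *RARG* was the highest of the 3, with 96.7, 99.4 and 106 CPM in ABS replicates 1, 2 and 3, against 103, 110 and 97.0 CPM in Ctrl replicates 1, 2 and 3. The groups overlapped throughout, and the log2 fold change was -0.04 (95% interval -0.20 to 0.13; edgeR adjusted p = 0.931). *RARA* had 41.0, 37.3 and 46.6 CPM in ABS libraries, against 45.8, 53.5 and 51.5 CPM in Ctrl libraries. ABS replicate 3 overlapped Ctrl replicate 1, and the log2 fold change was -0.27 ± 0.10 (SE; edgeR adjusted p = 0.369), with -0.34 within replicates 1 and 2 and -0.14 between the replicate 3 libraries. *RARA* shares 556 exonic bases with *RARA-AS1* on the opposite strand, a gene with 239 counts over the 6 libraries.

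*RARB*, itself a known target of retinoic acid receptors through the repeat printed above, had 9, 2 and 33 counts in ABS replicates 1, 2 and 3, against 19, 21 and 35 in Ctrl replicates 1, 2 and 3. Replicate 3 was the highest library of each group. Its log2 fold change of -0.86 had a 95% interval from -2.31 to 0.60 (edgeR adjusted p = 0.754). It was -1.92 within replicates 1 and 2 (adjusted p = 0.0919) and -0.16 between the replicate 3 libraries. With a library left out it ran from -2.2 without ABS replicate 3 to -0.37 without ABS replicate 2, with -0.61 without ABS replicate 1 and -0.58 without Ctrl replicate 3, and limma-voom gave -1.44. The gene did not pass in any of these fits. *RARB* shares 28 exonic bases with *TOP2B* on the opposite strand, a gene with 11906 counts over the 6 libraries against 119 for *RARB*, and the part of such reads was not tested. The partner genes *RXRA* and *RXRB* were detected while *RXRG* was not. *RXRA* had 110, 114 and 120 CPM in ABS libraries, against 104, 112 and 97.7 CPM in Ctrl libraries, with overlap between groups and a log2 fold change of 0.13 ± 0.08 (edgeR adjusted p = 0.624). *RXRB* had a log2 fold change of 0.02 (95% interval -0.25 to 0.29). It shares 244 exonic bases with *SLC39A7* on the opposite strand, a gene with 20404 counts over the 6 libraries against 4202 for *RXRB*.

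Genes that bind, make or break down retinoids or that retinoic acid induces were tested for 12 of 18. None was called with edgeR, and the median log2 fold change was -0.05. At an unadjusted p under 0.05, 1 was higher and 1 lower, beside 773 higher and 570 lower of all 13768 tested genes. *ALDH1A3*, an enzyme that makes retinoic acid, had 1070, 982 and 1010 CPM in ABS replicates 1, 2 and 3, against 831, 828 and 854 CPM in Ctrl replicates 1, 2 and 3. Its groups did not overlap, and the log2 fold change was 0.29 ± 0.07 (edgeR adjusted p = 0.0930).

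The thyroid hormone receptors pointed in opposite directions, and both 95% intervals included 0 (*THRB* -0.15 to 0.69, *THRA* -0.91 to 0.21). *THRB* had 4.8, 5.33 and 5.02 CPM in ABS replicates 1, 2 and 3, against 3.74, 4.05 and 4.76 CPM in Ctrl replicates 1, 2 and 3, without overlap but with a narrow gap. Its log2 fold change was 0.27 ± 0.19 (SE; edgeR adjusted p = 0.718), with 0.38 within replicates 1 and 2 and 0.08 between the replicate 3 libraries. *THRA* had 4.6, 3.93 and 7.14 CPM in ABS libraries, against 7.48, 7.87 and 4.72 CPM in Ctrl libraries. Replicate 3 lay on the far side of the other libraries in each group, so that the values were -0.84 on the log2 scale within replicates 1 and 2 and 0.60 between the replicate 3 libraries, against -0.35 ± 0.26 over all (edgeR adjusted p = 0.724). The 3′ end of *THRA* shares 263 exonic bases with *NR1D1* on the opposite strand, which had 2481 counts over the 6 libraries against 849 for *THRA*. *NR1D1* had 18.7, 18.3 and 14.5 CPM in ABS libraries, against 16.7, 18.8 and 17.5 CPM in Ctrl libraries, and its part in the *THRA* values was not tested. Of 8 genes for thyroid hormone handling and response 3 were tested and 0 called with edgeR, at a median of -0.46. At an unadjusted p under 0.05, 1 was lower, beside 570 of 13768 tested genes. That gene was *KLF9*, a target of both thyroid and glucocorticoid receptors, at -0.69 ± 0.24 on the log2 scale (adjusted p = 0.304).

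*PPARD*, a receptor for fatty acids present in most tissues, was the highest of the lipid sensors. It had 137, 133 and 123 CPM in ABS replicates 1, 2 and 3, against 103, 98.9 and 141 CPM in Ctrl replicates 1, 2 and 3. Ctrl replicate 3 exceeded all ABS libraries, while the other Ctrl libraries were below all of them. The log2 fold change was 0.20 ± 0.12 (SE; edgeR adjusted p = 0.632) over all libraries and 0.37 without Ctrl replicate 3, when the gene passed (adjusted p = 0.0171). Within replicates 1 and 2 it was 0.42, and between the replicate 3 libraries the log2 difference was -0.19.

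*PPARG*, the adipogenic receptor that is also expressed in colonic epithelium, was the receptor gene with the smallest difference between groups. It had 84.6, 85.1 and 78.3 CPM in ABS libraries, against 84.5, 86.0 and 75.9 CPM in Ctrl libraries, a log2 fold change of 0.01 (95% interval -0.16 to 0.18; edgeR adjusted p = 0.985). *PPARA*, the receptor that drives fatty acid oxidation in liver, had -0.05 (95% interval -0.40 to 0.30). The oxysterol receptors *NR1H2* and *NR1H3*, LXR beta and LXR alpha, had 0.10 (-0.10 to 0.29) and -0.07 (-0.46 to 0.31). Of 9 tested PPAR targets 0 were called with edgeR, at a median of -0.06. At an unadjusted p under 0.05, 1 was lower, beside 570 of 13768 tested genes. That gene, *PLIN2*, which coats lipid droplets, differed by -0.31 on the log2 scale (adjusted p = 0.384), and *ACADVL*, an enzyme of fatty acid oxidation, had -0.12 (0.683). Of 8 tested LXR targets 0 were higher and 1 was lower with edgeR, against 0.37% and 0.0654% of all tested genes, at a median of 0.01. The cholesterol exporter *ABCA1*, a textbook LXR target, had 0.09 ± 0.20.

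*NR3C1* (chr5:143277931-143435512, minus strand) had 62.0, 57.0 and 59.1 CPM in ABS replicates 1, 2 and 3, against 44.6, 48.1 and 53.9 CPM in Ctrl replicates 1, 2 and 3. All ABS values were above all Ctrl values, and Ctrl replicate 3 was closest to them. This is 0.28 ± 0.09 (SE) on the log2 scale, or 1.21-fold (edgeR adjusted p = 0.255). Without Ctrl replicate 3 it was 0.36 and passed (adjusted p = 0.0486). With any other library left out *NR3C1* did not pass (adjusted p of 0.169 to 0.758). The log2 fold change was 0.36 within replicates 1 and 2, and the log2 difference was 0.13 between the replicate 3 libraries. Of 10 tested glucocorticoid targets 1 rose and 1 fell with edgeR, against 0.37% and 0.0654% of all tested genes, at a median of -0.05. *CEBPD*, a C/EBP transcription factor gene of inflammatory and hormone responses, rose to 28.2, 27.9 and 28.6 CPM in ABS libraries, against 14.8, 15.7 and 18.7 CPM in Ctrl libraries, a log2 fold change of 0.79 ± 0.11 (adjusted p = 0.00925). *ERRFI1*, a feedback inhibitor of the EGF receptor, fell to 111, 113 and 106 CPM in ABS libraries, against 172, 160 and 153 CPM in Ctrl libraries (-0.55 ± 0.07, adjusted p = 0.00498). The *CEBPD* call ended without ABS replicate 1 (0.0702), ABS replicate 2 (0.0523), Ctrl replicate 1 (0.0759) or Ctrl replicate 2 (0.112). That of *ERRFI1* ended without ABS replicate 1 (0.0691), Ctrl replicate 1 (0.0586) or Ctrl replicate 2 (0.0561). *FKBP5* and *TSC22D3*, also on this list and picked after their values were seen, had log2 fold changes of -0.07 (adjusted p = 0.851) and -0.29 (0.657). Both genes respond to other signals too.

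**Figure D3:**
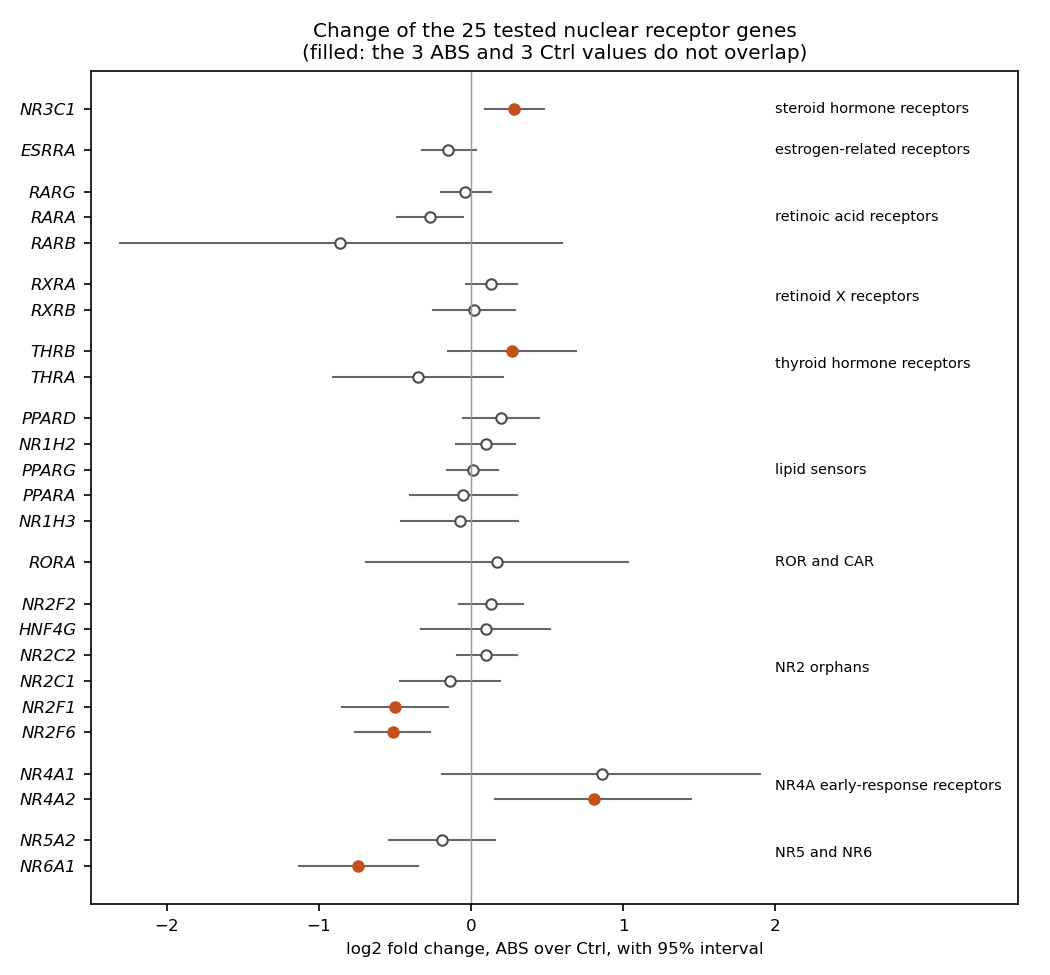
Log2 fold change, ABS over Ctrl, of the 25 tested receptor genes with 95% intervals from the edgeR fit, grouped by role (filled points: the 3 ABS and 3 Ctrl values do not overlap). The fitted values run from -0.86 (*RARB*) to 0.86 (*NR4A1*), both with intervals that include 0, and 0 of 25 passed the adjusted threshold.

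*ESRRA* had 137, 126 and 127 CPM in ABS replicates 1, 2 and 3, against 145, 156 and 131 CPM in Ctrl replicates 1, 2 and 3. ABS replicate 1 overlapped Ctrl replicate 3, and the log2 fold change was -0.15 ± 0.08 (SE; edgeR adjusted p = 0.597), with -0.19 within replicates 1 and 2 and -0.05 between the replicate 3 libraries. *ESRRA* shares 284 exonic bases with *TRMT112* on the opposite strand, a gene with 15730 counts over the 6 libraries against 19504 for *ESRRA*. Of 8 genes of its energy metabolism list, *ESRRA* among them, 0 were called with edgeR and 0 reached an unadjusted p under 0.05, with log2 fold changes between -0.15 and 0.15 and a median of 0.03. *IDH3A*, a subunit of an enzyme of the citric acid cycle, had 0.15 (adjusted p = 0.7). Of 5 tested estrogen targets 0 were called and 0 had an unadjusted p under 0.05, with a median of 0.01. Of these, *CA12*, a carbonic anhydrase, had 0.69 (adjusted p = 0.669), with 1.17 within replicates 1 and 2 and -0.38 between the replicate 3 libraries, and *IGFBP4*, a binding protein of insulin-like growth factors, -0.10 (0.827). *RORA* had a log2 fold change of 0.17 with a 95% interval from -0.69 to 1.03.

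Among the proteins that receptors recruit, 1 of 13 tested coactivators rose and 0 fell with edgeR, at a median of 0. Over all tested genes 0.37% were called higher and 0.0654% lower. *NCOA7*, a coactivator first described for the estrogen receptor and also known for a role in oxidation resistance and endolysosomes, rose to 50.3, 53.7 and 37.0 CPM in ABS replicates 1, 2 and 3, against 25, 20.6 and 31.2 CPM in Ctrl replicates 1, 2 and 3. The replicate 3 libraries were nearest to each other, and the log2 fold change was 0.87 ± 0.16 (edgeR adjusted p = 0.0394). It was 1.19 within replicates 1 and 2 and 0.24 between the replicate 3 libraries. The call ended without ABS replicate 1 (0.263), ABS replicate 2 (0.203), Ctrl replicate 1 (0.201) or Ctrl replicate 2 (0.244), and with library size alone as scaling (0.0766). *PPARGC1B*, a coactivator of estrogen-related receptors and PPARs that was picked after its values were seen, had 7.58, 5.68 and 8.01 CPM in ABS libraries, against 11.9, 11.6 and 8.98 CPM in Ctrl libraries, with no overlap and a log2 fold change of -0.60 ± 0.18 (edgeR adjusted p = 0.194). It was -0.82 within replicates 1 and 2 and -0.16 between the replicate 3 libraries.

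Of 9 corepressors 0 were called with edgeR and 0 had an unadjusted p under 0.05, with log2 fold changes between -0.14 and 0.22. *SIN3A*, a scaffold of histone deacetylase complexes, had -0.12 (adjusted p = 0.740). Of 10 chaperone genes that serve steroid receptors 0 were called, 3 were higher at an unadjusted p under 0.05, beside 773 of 13768 tested genes, and the median was 0.05. These included *HSPA8*, with 1980, 2050 and 1840 CPM in ABS libraries, against 1380, 1380 and 1740 CPM in Ctrl libraries (log2 fold change 0.38, edgeR adjusted p = 0.109), and *HSP90AA1*, with 0.17 (0.409). *HSPA8* differed by 0.55 on the log2 scale within replicates 1 and 2 and by 0.08 between the replicate 3 libraries, and Ctrl replicate 3 was the highest of its Ctrl values. Of 13 further nuclear receptor genes, among them those for bile acid sensing, 3 passed the low-count filter and 0 were called with edgeR. *NR1D2*, a repressor of the circadian clock, had 65.7, 74.3 and 54.7 CPM in ABS libraries, against 48.5, 45.4 and 46.4 CPM in Ctrl libraries (0.47, adjusted p = 0.0867), with 0.57 within replicates 1 and 2 and 0.24 between the replicate 3 libraries. *VDR*, the vitamin D receptor, which also binds the bile acid lithocholic acid, had 58.5, 57.8 and 67.8 CPM in ABS libraries, against 52.2, 51.7 and 48.9 CPM in Ctrl libraries (0.27, adjusted p = 0.263), with 0.16 within replicates 1 and 2 and 0.47 between the replicate 3 libraries.

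**Figure D4:**
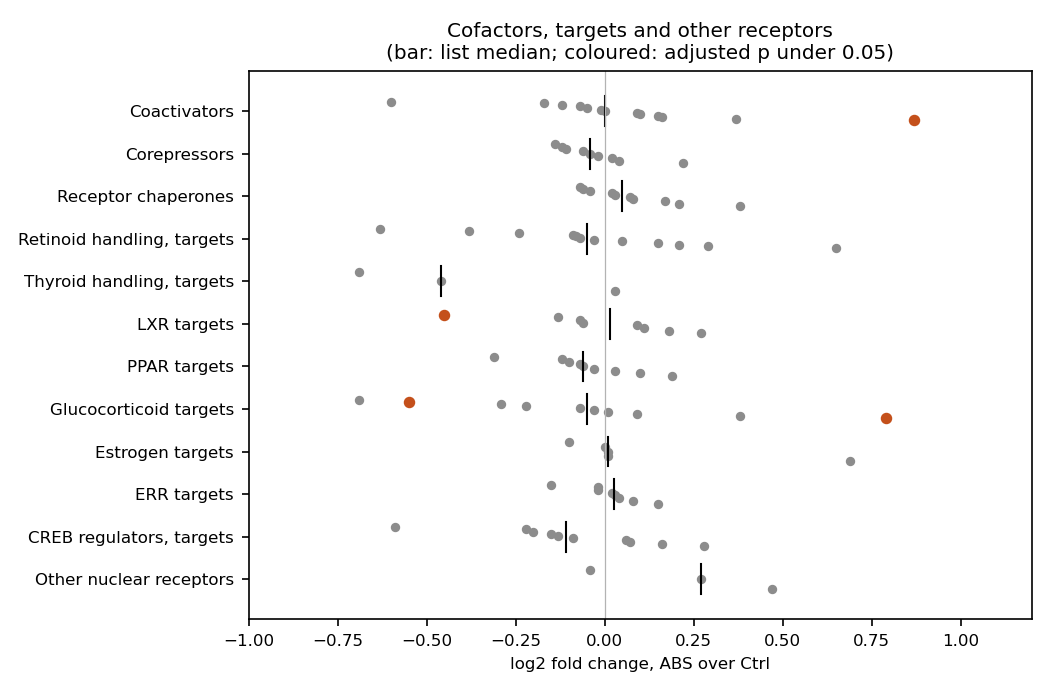
Log2 fold change, ABS over Ctrl, of each tested gene in 12 lists of cofactors, targets and other receptors (points; bars mark list medians; orange points passed an adjusted p of 0.05). The points that passed include *NCOA7* (0.87) among the coactivators and *CEBPD* (0.79) and *ERRFI1* (-0.55) among the glucocorticoid targets.

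The receptor genes that depended most on the replicate 3 libraries were *NR4A1*, *NR4A2*, *RARB*, *PPARD* and *THRA*. In a fit of the 4 libraries of replicates 1 and 2, 11 of the 25 receptor genes passed with edgeR, against 13.2% of all tested genes. This fit leaves out the library of each group that was least like the others. With 2 similar libraries per group, it understates the spread between replicates. The 11 were *NR4A1*, *NR4A2*, *NR3C1*, *PPARD* and *NR2F2*, higher in ABS cells, and *NR2F6*, *NR2F1*, *NR6A1*, *RARA*, *THRA* and *ESRRA*, lower. Once the model held a term for replicate 3, *NR2F6*, *NR2F1* and *NR6A1* passed, at adjusted p of 0.00446, 0.0308 and 0.0321, against 3.38% of all tested genes. With a block for the replicate number 1 passed, *NR2F6*, against 2.54%. Without Ctrl replicate 3 there were 5, *NR2F6*, *NR3C1*, *NR4A1*, *NR4A2* and *PPARD*, against 3.1% of all tested genes, and without ABS replicate 3 there was 1, *NR2F6*, against 1.94%. *NR6A1* and *NR2F1* differed by similar amounts in replicates 1 and 2 and in the replicate 3 pair, which holds 1 library per group.

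**Figure D5:**
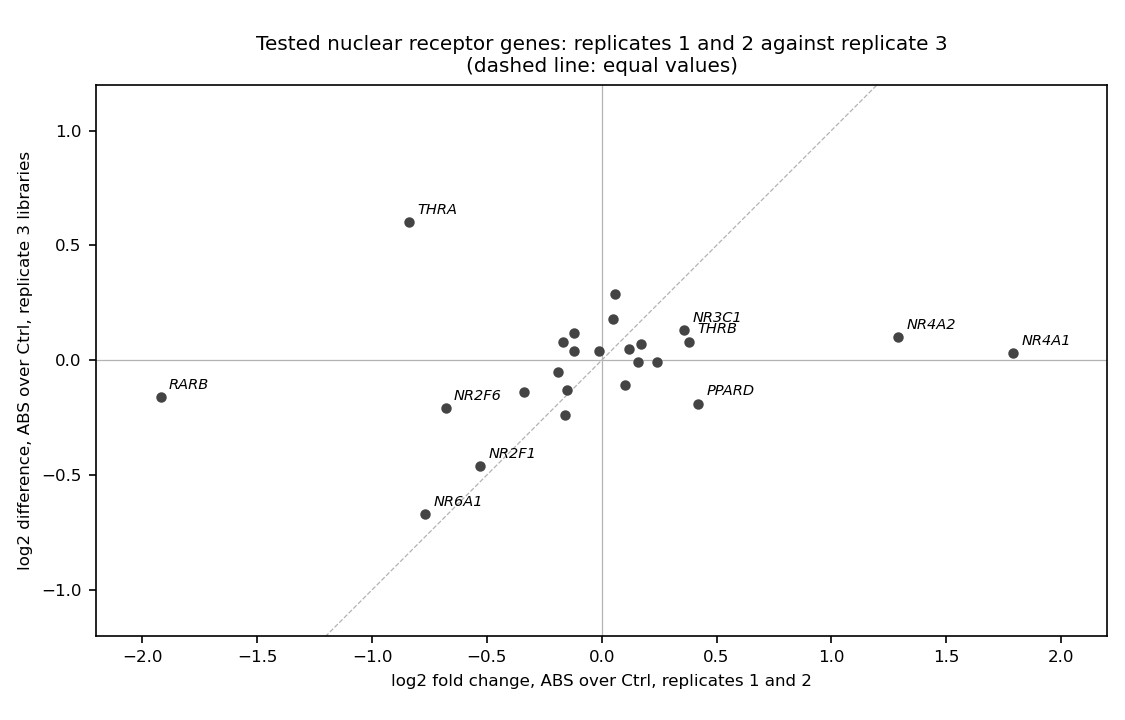
Log2 fold change, ABS over Ctrl, of the 25 tested receptor genes within replicates 1 and 2 (horizontal axis) and log2 difference between the replicate 3 libraries (vertical axis, 1 library per group; dashed line: equal values). *NR6A1* and *NR2F1* lie near the line, *NR4A1* and *NR4A2* lie near 0 on the vertical axis, and *THRA* has opposite signs.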

How the data were processed

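PolyA RNA of 6 OE33 libraries was measured, 3 ABS and 3 Ctrl. The deposited values are raw read counts of genes. Per the submitters' processing notes, HISAT2 2.0.5, featureCounts 1.5.0-p3 and GRCh38 were used. Annotation release, strand setting and treatment of multi-mapping reads are not given in the sources used here. Overlaps not given above include those of *NR1H3* with *ACP2* (189 exonic bases) and of *NR2C2* with *MRPS25* (1197) and *FGD5-AS1* (155), on the opposite strand. On the same strand, *NR2F6* shares 221 exonic bases with *AC010646.1*, a gene with 0 counts over the 6 libraries. *ESR2* shares 523 with *AL161756.1*, which had 19 counts against 9 for *ESR2*. No strand setting separates genes on the same strand. All 58735 gene identifiers had identical coordinates in GENCODE release 29, and deposited lengths equalled merged exons for all 35 receptor genes.

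edgeR 4.0.16 in R 4.3.3 was used with filterByExpr (minimum count 10), TMM scaling, a quasi-likelihood F-test of ABS over Ctrl with group as the only term, and Benjamini-Hochberg adjustment over 13768 genes (threshold 0.05). The SE is the size of the log2 fold change divided by the square root of F. CPM used effective library sizes and TPM the deposited lengths. DESeq2 1.42.0, limma 3.58.1 (voom), other scalings and filters, left-out libraries and a replicate block were alternatives. The fit was tested on simulated data.

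Receptors and lists were chosen with earlier results of these data known. The rule named the 12 tested receptor genes with the smallest p and the highest of each role, and of each list the called members or else the 2 with the smallest p. *ABCA1*, *FKBP5*, *TSC22D3*, *PPARGC1B* and *NR1D1* were added after their values were seen. Some list genes that the rule names are not reported here by name, but remain in the counts and medians of their lists.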

Additional observations from a re-analysis of the deposited data

How the results depend on the processing

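The count of receptor genes past the threshold, 0 of 25 with edgeR, was also 0 with RLE factors, with library size alone, with limma-voom and with a minimum count of 30. It was 2 with DESeq2, 3 without a low-count filter (32 genes tested), 3 with a term for the replicate 3 libraries, 11 within replicates 1 and 2, and 0 to 5 with a library left out. Over all genes the count of 60 became 35 with library size alone, 264 with DESeq2 and 409 without a filter. It was 465 with the term and 1813 within replicates 1 and 2, and lay between 12 and 438 with a library left out. The fit within replicates 1 and 2 leaves out the library of each group least like the others, so it understates the spread between replicates. The count of receptor genes without overlap between groups, 6, was 19 within replicates 1 and 2 and 6 to 14 with a library left out. Groups of fewer values separate more easily, and the share over all genes was not computed for these smaller sets. Their counts therefore have no background and are no result about the receptor genes. Of the 10 highest receptor genes by TPM in Ctrl cells, 9 were also among the 10 highest by CPM.

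The replicate numbers share no stated culture, and deviations of same-numbered libraries from their group means correlated by 0.0425, 0.0333 and 0.167 for numbers 1, 2 and 3. Between libraries of unlike number the correlations ran from -0.125 to 0.0934, so only number 3 lay above that range. With a replicate block, 1 receptor gene, *NR2F6*, and 350 genes in all passed. Signs changed only for genes with a log2 fold change near 0, and the cause was not tested. With a library left out, values ran from -0.08 to 0.01 for *RARG*, -0.06 to 0.16 for *RXRB*, -0.23 to 0.06 for *PPARA*, -0.05 to 0.05 for *PPARG*, -0.21 to 0 for *NR1H3* and -0.11 to 0.23 for *HNF4G*. *PPARG* also went to 0 with library size alone and to -0.01 within replicates 1 and 2. At this depth 10 of the 35 receptor genes, *NR4A3* among them, had too few reads to be tested.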
